A study of Mus musculus with 16 samples.

Results

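Bile acid synthesis, transport and sensing by the farnesoid X receptor (FXR) were followed through 10 genes, chosen by name: Cyp7a1, Cyp8b1, Cyp27a1, Cyp7b1, Abcb11, Slc10a1, Slco1b2, Baat, Nr0b2 and Nr1h4. The choice was made with earlier results of these data known. All 10 were present among the 35502 genes of the count table, and all 10 were among the 13379 genes with enough counts to test. The data are RNA-seq counts from the livers of 16 mice, 4 in each of 4 groups. Per the labels these are mature controls (Mat.Con, no Cre), mature LERKO mice (Cre present), immature controls (Imm.Con, no Cre) and immature LERKO mice (Cre present). LERKO is the liver-specific knockout of oestrogen receptor alpha, and the series' design text calls the controls flox mice. The title places the knockout before or after sexual maturity, and the design text calls the mice themselves immature or mature. The sources used here give neither the age and sex of the mice nor how Cre was delivered. Each library came from a single mouse.

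Hepatocytes make bile acids from cholesterol. The classic route begins with Cyp7a1 and the alternative route with Cyp27a1 and Cyp7b1, Cyp8b1 directs the product towards cholic acid, and Baat joins bile acids to taurine or glycine. The canalicular pump Abcb11 (BSEP) exports bile acids, and Slc10a1 (NTCP) and Slco1b2 take them up again from blood. FXR, encoded by Nr1h4, is the nuclear receptor that senses bile acids, and it induces Nr0b2 (SHP), a repressor of Cyp7a1 and Cyp8b1, as well as Abcb11. Oestrogens are known for reducing bile flow in some settings.

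Total counts ran from 18123974 to 23213905 per library. Levels are given as CPM, counts scaled to library size with TMM factors, with mean ± SD over 4 mice. Folds were tested with edgeR's quasi-likelihood test, with Benjamini-Hochberg adjustment over all tested genes, and a gene was called at an adjusted p below 0.05. Esr1, the targeted gene, stood at 82.2 ± 19.1 CPM in mature controls and 16.3 ± 2.19 in mature LERKO, and at 73.6 ± 15.8 in immature controls and 13 ± 2.19 in immature LERKO, with no overlap between genotypes of a stage. The hepatocyte genes Alb and Apoa1 were abundant in every group, with mean levels of at least 85860 and 8412 CPM. Several libraries stood apart. Summed transcripts of 10 skeletal muscle genes reached 810, 367 and 53.7 CPM in mature control libraries 1, 2 and 4. They reached 149 CPM in immature LERKO library 4. All others, among them every mature LERKO library, held 0.502 to 2.485 CPM. In mature LERKO library 4, 12 acute phase genes summed to 110700 CPM, against 13030 to 19100 in the other 15 libraries. In mature LERKO library 3 the clock gene Arntl stood at 16.3 CPM and Dbp, a clock gene of opposite phase, at 17.7, against at most 3.4 and at least 67.7 in all others. In bulk liver, fewer cells of a type and less RNA per cell cannot be told apart.

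None of the 10 genes was called in any comparison of the 4 groups. With edgeR the count was 0 of 10 for LERKO against control in mature mice, where 0.00747% of all tested genes were called, and 0 of 10 in immature mice, where the share was also 0.00747%. It was 0 of 10 for mature against immature mice in controls and in LERKO, for the difference of the knockout effects, for both effects averaged, and for any difference among the 4 groups, with at most 1 gene called among all tested in each. Wherever edgeR called a gene, it was Esr1, the targeted gene, alone. DESeq2 also called 0 of the 10 in each comparison. Its background was 0.202% in mature and 0.0972% in immature LERKO against control, 0.553% and 0.0448% between stages in controls and LERKO, 0.164% for the difference of effects, 0.0224% and 0.217% for the averaged knockout and stage effects, and 0.516% for any difference. Limma-voom called 0 of the 10 as well, also when samples were weighted by quality. In the comparisons other than any difference, limma-voom called at most 1 of all 13379 tested genes. With quality weights it called at most 8, between control stages. At an unadjusted p below 0.05 there was 1 of 10 in mature LERKO against control (background 7.3%), 0 of 10 in immature mice (2.76%), 0 of 10 between control stages (9.84%) and 1 of 10 between LERKO stages (4.93%). For the averaged knockout effect there was 1 of 10 (3.69%), and for the difference of effects, the averaged stage effect and any difference 0 of 10 (6.35%, 7.92% and 6.6%). In each case the gene was Nr0b2, with the lower level in LERKO or in mature LERKO. No member separated the 4 libraries of a group from the 4 of another in any of these 4 comparisons, whereas 3.9%, 1.63%, 8.86% and 1.52% of tested genes did so. The plot of levels by mouse shows this overlap gene by gene.

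**Figure D1:**
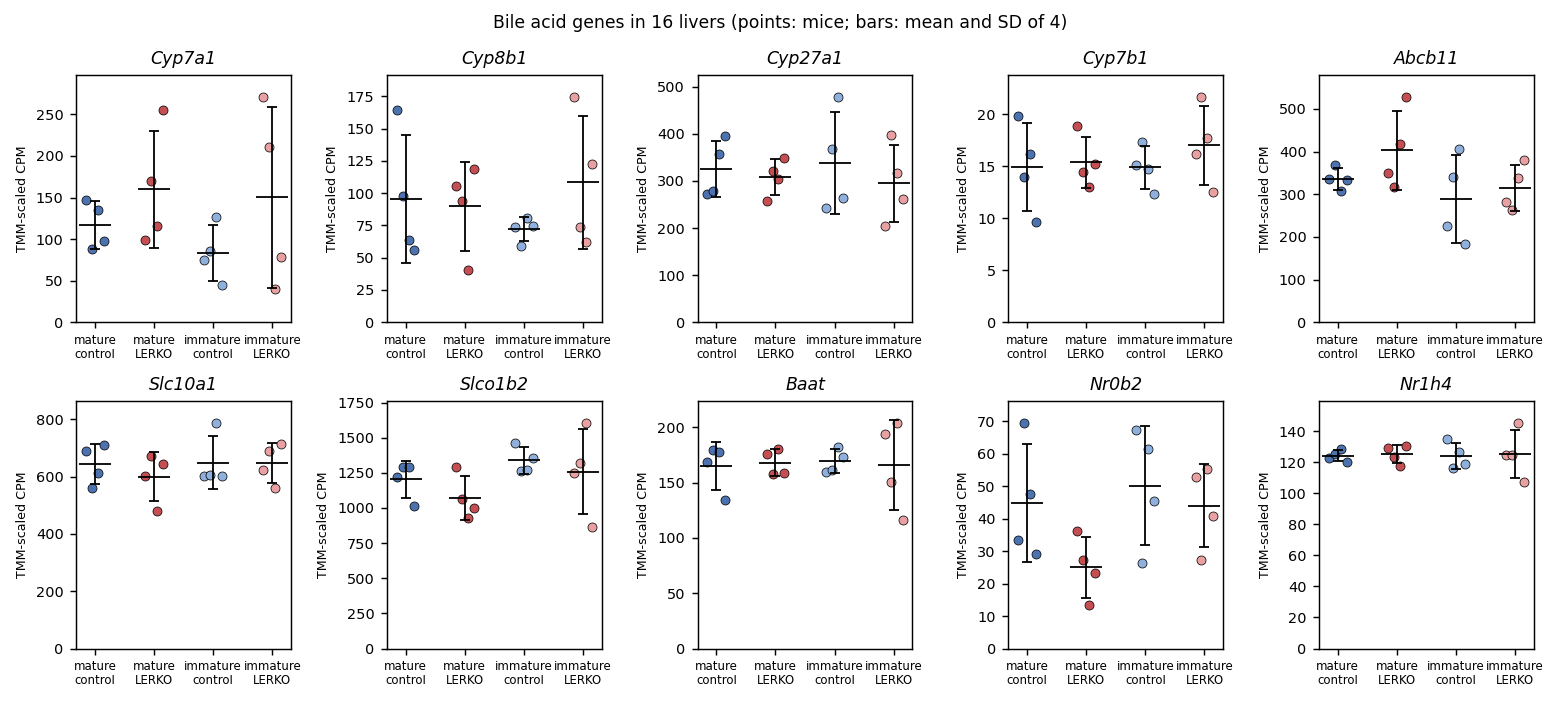
TMM-scaled CPM (linear axes from 0) of the 10 bile acid genes in each of 16 mice, by group, with the mean and SD of 4 mice as bars. Cyp7a1 ran from 39.8 to 271 CPM and Nr1h4 from 107 to 145, and for every gene the groups overlap.

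Cyp7a1, the rate-limiting enzyme of the classic route, varied most between mice. The gene lies on the reverse strand at chr4:6265612-6275633 (GRCm38). Its levels in mature mice were 147, 87.8, 136 and 97.6 CPM without Cre and 98.7, 171, 116 and 255 CPM with Cre. In immature mice they were 74.8, 85.7, 126 and 44.5 CPM without Cre and 271, 211, 39.8 and 79 CPM with Cre. The immature LERKO group therefore contained both the highest and the lowest value of all 16 mice, and its range enclosed that of every other group. The highest mature LERKO value came from library 4, the library with the acute phase transcripts, and their part in that value was not tested. In immature mice Cyp7a1 had a log2 fold change of 0.86 (SE 0.48, 95% interval -0.15 to 1.87, edgeR adjusted p = 0.9995). Its value was 0.41 without immature LERKO library 1 and 1.17 without library 3, with adjusted p-values of 0.97 and 0.935, the range over all alternatives being 0.935 to 1. In mature mice it was 0.45 (SE 0.47, edgeR adjusted p = 0.854), 0.17 without mature LERKO library 4 and 0.35 with library size alone. An interval that reaches 3.65-fold in immature and 2.74-fold in mature mice leaves a large difference undetectable at this spread.

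Cyp8b1, the sterol 12-hydroxylase that sets the share of cholic acid, is a gene of 1 exon on the reverse strand at chr9:121914356-121916305. It stood at 95.6 ± 49.4 CPM in mature controls and 89.7 ± 34.3 in mature LERKO. Immature controls were tight, at 74, 59.2, 81 and 74.3 CPM, and immature LERKO mice held 174.5, 73.8, 62.4 and 123 CPM. Library 1 of immature LERKO was thus the highest of all 16 for both Cyp8b1 and Cyp7a1. The log2 fold change in immature mice was 0.59 (SE 0.38, edgeR adjusted p = 0.9995), and 0.26 without that library. In mature mice the 95% interval ran from 0.542-fold to 1.63-fold. The lowest Cyp8b1 level, 40.5 CPM, was in mature LERKO library 3, the library with high Arntl.

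The alternative route was steadier. Cyp27a1, the mitochondrial sterol 27-hydroxylase, stood at 326 ± 60 CPM in mature controls, 308 ± 38.3 in mature LERKO, 338 ± 108 in immature controls and 295 ± 82 in immature LERKO. Its 95% interval was 0.681-fold to 1.31-fold for the knockout in mature mice and 0.628-fold to 1.21-fold in immature mice. Cyp7b1, the oxysterol 7-hydroxylase, was the least abundant member. Mature controls held 19.8, 14, 16.2 and 9.63 CPM, mature LERKO 18.8, 14.4, 13 and 15.2, immature controls 15.1, 17.4, 14.7 and 12.3, and immature LERKO 16.1, 21.6, 17.7 and 12.5. The groups overlapped throughout, and the intervals for the knockout were 0.77-fold to 1.39-fold in mature and 0.851-fold to 1.53-fold in immature mice. Baat, the conjugating enzyme, had group means of 165, 168, 169 and 166 CPM in the order mature control, mature LERKO, immature control and immature LERKO. Its spread was widest in immature LERKO, from 116 CPM in library 4 to 204 in library 3. Its intervals were 0.818-fold to 1.27-fold in mature and 0.788-fold to 1.22-fold in immature mice.

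Among transporters, Abcb11, on the reverse strand at chr2:69238282-69342616, stood at 336 ± 25.9 CPM in mature controls, 403 ± 93.1 in mature LERKO, 289 ± 102 in immature controls and 316 ± 53.8 in immature LERKO. Mature LERKO mice held 350, 317, 417 and 528 CPM, and mature controls 335, 370, 306.5 and 333. The 2 highest values of all 16 libraries, 528 and 417, were in mature LERKO, in library 4 with acute phase transcripts and library 3 with high Arntl. The log2 fold change in mature mice was 0.26 (SE 0.22, edgeR adjusted p = 0.813), and 0.13 without library 4. That library had the lowest TMM factor, 0.852, and with library size alone the value was 0.17. The sodium-dependent uptake carrier Slc10a1 ranged only from 480 CPM in mature LERKO library 3 to 786 in immature control library 3. Its knockout intervals were 0.764-fold to 1.14-fold in mature and 0.817-fold to 1.22-fold in immature mice. Slco1b2, an organic anion carrier of the sinusoidal membrane, stood at 1205 ± 131 and 1072 ± 158 CPM in mature controls and LERKO, and at 1338 ± 93.9 and 1258 ± 304 in immature ones. Library 4 of immature LERKO, with muscle transcripts, was the lowest at 864 CPM and library 3 of the same group the highest at 1602. Its log2 fold change in mature mice was -0.17 (SE 0.16, edgeR adjusted p = 0.841), and it ran from -0.27 without mature LERKO library 1 to -0.10 without library 3.

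**Figure D2:**
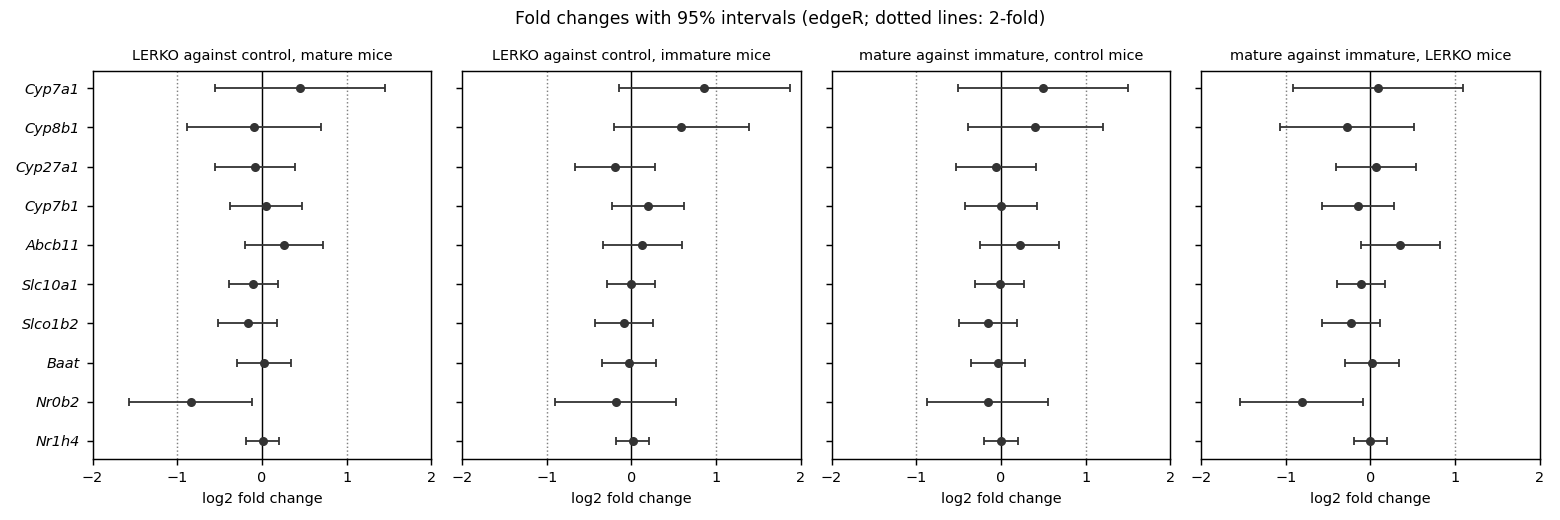
Log2 fold changes (points) with 95% intervals (bars) of the 10 genes in the 4 pairwise comparisons, from edgeR; the dotted lines mark 2-fold. The widest intervals belong to Cyp7a1, Cyp8b1 and Nr0b2, and those of Nr1h4 lie between -0.20 and 0.21 in all 4 panels.

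Nr1h4, the FXR gene itself, had the smallest spread of levels. It lies on the reverse strand at chr10:89454234-89533585. Its group means were 124, 125, 124 and 125 CPM in the order mature control, mature LERKO, immature control and immature LERKO, with SDs of 3.57, 5.79, 8.51 and 15.5. The widest group was immature LERKO, with 125, 124, 145 and 107 CPM. The 95% interval of the knockout effect was 0.88-fold to 1.15-fold in mature mice and 0.881-fold to 1.16-fold in immature mice. Averaged over both stages it was 0.916-fold to 1.11-fold.

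Nr0b2, the FXR-induced repressor, had the smallest p of the 10 genes in mature LERKO against control. It lies on the forward strand at chr4:133553376-133556536. Its levels were 33.5, 69.3, 47.6 and 29.1 CPM in the mature controls and 36.2, 27.3, 13.5 and 23.2 in the mature LERKO mice. They were 67.1, 26.4, 61.4 and 45.4 CPM in the immature controls and 52.7, 27.3, 55.2 and 40.7 in the immature LERKO mice. Mature LERKO was the lowest group, and its highest mouse lay above 2 of the 4 mature controls. The log2 fold change in mature mice was -0.84 (SE 0.34, 95% interval -1.57 to -0.11, edgeR adjusted p = 0.645), so it did not pass. It was -0.54 without mature control library 2, among the libraries with muscle transcripts, and -0.63 without mature LERKO library 3, with adjusted p-values of 0.794 and 0.827, and over all alternatives the adjusted p ran from 0.308 to 0.999. In immature mice it was -0.19 (SE 0.34, edgeR adjusted p = 0.9995). The difference between these knockout effects was -0.65 (SE 0.48, edgeR adjusted p = 0.8289) and did not pass. It was -0.35 without mature control library 2. Mature against immature LERKO mice differed by -0.81 (SE 0.34, edgeR adjusted p = 0.955), a comparison that shares the mature LERKO libraries with the knockout comparison.

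The clock values of mature LERKO library 3 stood beside 3 of these minima. That library was the lowest of all 16 for Nr0b2 (13.5 CPM), Cyp8b1 (40.5) and Slc10a1 (480). The sum of 12 clock genes was 500.5 CPM there, against 589 to 891 in the others. This sum is led by Tef and Dbp and adds genes of opposite phase, such as Arntl and Dbp, so it does not give the phase. Over groups, the sums ran from 744 to 891 CPM in mature controls, 500.5 to 752 in mature LERKO, 672 to 773 in immature controls and 589 to 764 in immature LERKO. The part of the clock in these levels was not tested. Fgf15, the ileal hormone that signals bile acid return, had 0 counts in every library.

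Promoter sequence was examined for Nr0b2 and Abcb11, the members that FXR is best known to induce, to show which receptor motifs lie close to their starts. RefSeq on GRCm38.p6 held 8 windows for 7 of the 10 genes, and the 250 bases before each start were searched on both strands. The Nr0b2 window lies at chr4:133553126-133553375 on the forward strand. Capitals mark TCAAGG, the core of the motif of LRH-1 (Nr5a2), and CACGTG, the E-box bound by clock factors.
Nr0b2: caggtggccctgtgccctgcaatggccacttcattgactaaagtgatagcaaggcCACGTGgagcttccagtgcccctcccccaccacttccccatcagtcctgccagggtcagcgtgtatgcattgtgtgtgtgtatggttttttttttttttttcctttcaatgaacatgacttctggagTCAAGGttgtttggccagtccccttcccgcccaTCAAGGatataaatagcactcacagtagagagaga
The Abcb11 window lies at chr2:69342617-69342866 on the reverse strand, and capitals mark TGACCT, the reverse complement of the nuclear receptor motif AGGTCA.
Abcb11: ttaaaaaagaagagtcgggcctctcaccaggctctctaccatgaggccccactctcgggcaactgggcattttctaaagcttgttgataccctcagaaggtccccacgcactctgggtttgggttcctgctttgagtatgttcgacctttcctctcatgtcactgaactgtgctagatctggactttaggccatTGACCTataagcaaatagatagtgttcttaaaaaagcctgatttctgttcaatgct
The Nr0b2 window held the LRH-1 core at 2 places, beginning 68 and 35 bases before the start, and the E-box at 1, beginning 195 bases before it. Among 32536 distinct windows, 12.4% held the LRH-1 core and 6.04% the E-box. The nuclear receptor motif lay in single windows of Abcb11, Slco1b2, Nr1h4 and Slc10a1, and in 14% of all windows. The oestrogen response element GGTCANNNTGACC was found in 0 of the 8 windows and 0.0645% of all. The inverted repeat AGGTCANTGACCT, which contains the nuclear receptor motif on both strands and is the form that FXR with RXR prefers, was found in 0 of the 8 and 0.00615% of all. Only exact letters were searched, so repeats with a differing letter were not counted. In Abcb11 the letters aggccat stand directly before the marked TGACCT, with c where the repeat has T. A match describes letters in a window and shows no binding.

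Levels were compared between genes only per kilobase of exon. Slc10a1 was highest, at 289 CPM per kb as the mean of 16 libraries, and Slco1b2 followed at 247. Slc10a1 lay above Slco1b2 in 12 of 16 libraries. Cyp27a1 (146), Baat (86), Abcb11 (65.3), Nr1h4 (54.1), Cyp8b1 (46.9), Nr0b2 (36.2) and Cyp7a1 (30.6) came next, in CPM per kb. Neighbours from Nr1h4 to Cyp7a1 did not differ beyond the spread of the more variable gene. Nr1h4 exceeded Cyp8b1 in 12 libraries, Cyp8b1 exceeded Nr0b2 in 10 and Nr0b2 exceeded Cyp7a1 in 10. Cyp7b1 was lowest, at 7.18 CPM per kb, and lay below Cyp7a1 in all 16.

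**Figure D3:**
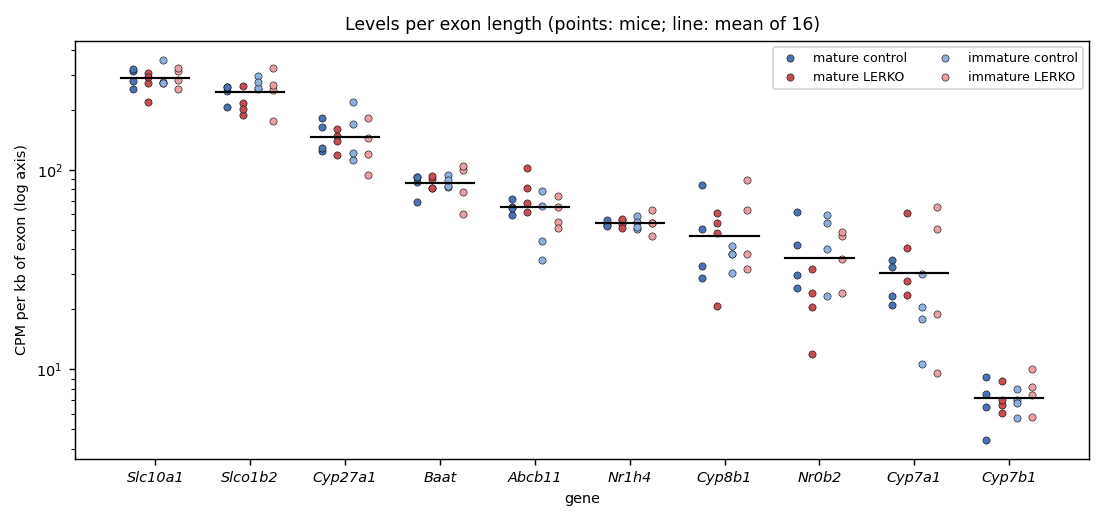
CPM per kb of exon (log axis) of the 10 genes in each of 16 mice, ordered by the mean (black lines) and coloured by group. Uptake carriers lead with means of 289 and 247 and Cyp7b1 closes the order at 7.18.

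The members differed widely in how much mice of the same group varied. The SD of log2 CPM between mice of a group was 0.80 for Cyp7a1, 0.61 for Cyp8b1 and 0.56 for Nr0b2, against a median of 0.24 over all tested genes. These SDs exceeded those of 96.7%, 91.7% and 89.1% of tested genes. Cyp27a1 (0.34), Abcb11 (0.34) and Cyp7b1 (0.31) lay in between. Slco1b2 (0.23), Baat (0.22) and Slc10a1 (0.18) lay below the median of all genes, and Nr1h4 (0.11) exceeded only 5.92% of them. Across all 16 mice the highest level was 6.8 times the lowest for Cyp7a1, 5.12 times for Nr0b2 and 1.35 times for Nr1h4.

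**Figure D4:**
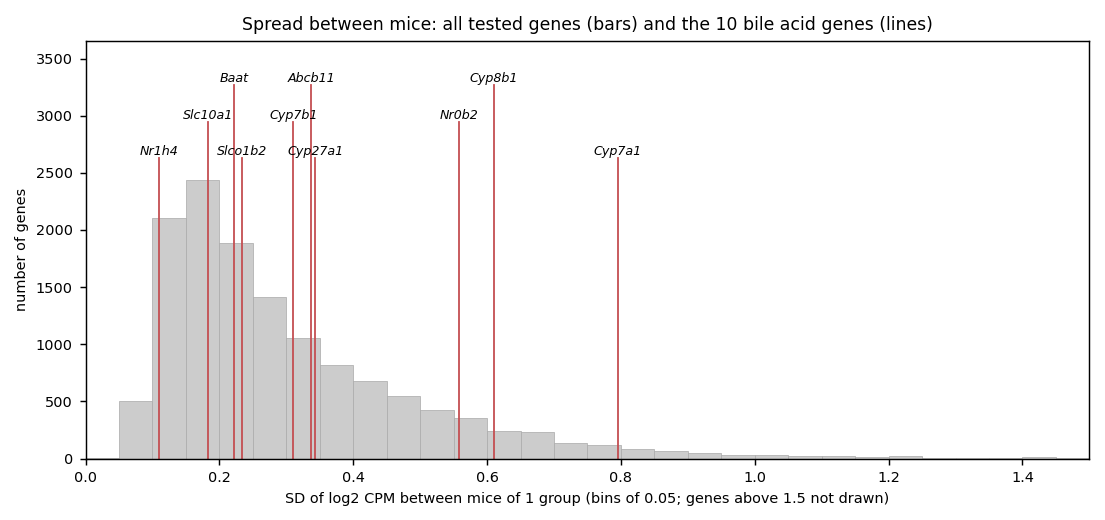
Number of tested genes by the SD of log2 CPM between mice of a group (grey bars), with the 10 bile acid genes as red lines. Cyp7a1, Cyp8b1 and Nr0b2 lie in the right tail, at 0.80, 0.61 and 0.56, and Nr1h4 at the left, at 0.11.

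Whether members varied together between mice of a group was tested for all 45 pairs, on log2 CPM with group means removed and values permuted within groups. With Benjamini-Hochberg adjustment 0 of 45 pairs passed by the permutation test of Pearson's r and 0 by Spearman's rho, and 5 had an unadjusted Pearson p below 0.05. The strongest pair was Slco1b2 with Nr1h4, at r = 0.84 (permutation p = 0.00363, adjusted p = 0.163) and rho = 0.70 (permutation p = 0.00734, adjusted p = 0.166). Without the 2 libraries farthest from the median of Slco1b2, libraries 3 and 4 of immature LERKO, r was 0.57. Without mature LERKO library 4 it was 0.88 and passed (permutation test, adjusted p = 0.03735), as it did with library size alone at r = 0.86 (adjusted p = 0.0063), and the highest adjusted p over the alternatives was 0.431. Nr1h4 with its target Nr0b2 had r = 0.53 (permutation p = 0.0348, adjusted p = 0.357) and rho = 0.71 (permutation p = 0.00738, adjusted p = 0.166), and r = 0.42 without the 2 farthest libraries. Nr0b2 with Cyp7a1, the gene it represses, had r = -0.16 (permutation p = 0.579, adjusted p = 0.999) and rho = -0.21 (permutation p = 0.46, adjusted p = 0.845), and r = -0.17 without the 2 farthest. Nr0b2 with Cyp8b1 had r = 0.42 (permutation p = 0.141, adjusted p = 0.478) and rho = 0.27 (permutation p = 0.34, adjusted p = 0.714), and r = 0.44 without the 2 farthest. Cyp7a1 with Cyp8b1 had r = 0.42 (permutation p = 0.181, adjusted p = 0.485) and rho = 0.35 (permutation p = 0.252, adjusted p = 0.596), and r = 0.12 without libraries 1 and 3 of immature LERKO.

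**Figure D5:**
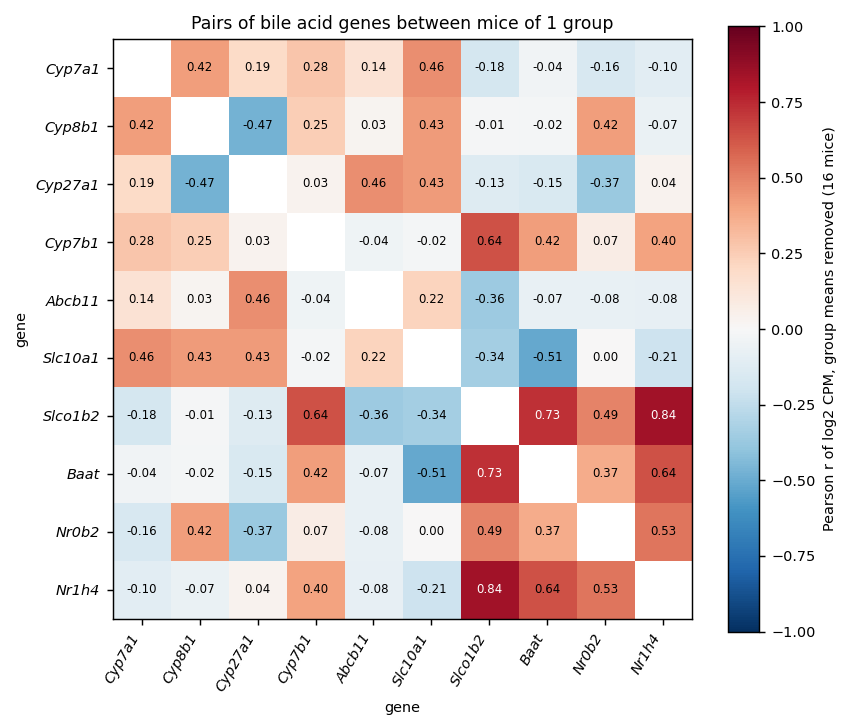
Pearson r of log2 CPM for the 45 pairs of bile acid genes over 16 mice, with group means removed (red positive, blue negative; both axes list the genes). The darkest cell is Slco1b2 with Nr1h4 at 0.84, and Nr0b2 with Cyp7a1 is near 0 at -0.16.

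Over the 16 libraries, without removal of group means, the tested genes most like Cyp7a1 in log2 CPM were Vps52 (r = 0.88), Zfp800 (0.84) and Klhdc10 (0.84). For Cyp8b1 they were Gm46516 (0.87), Tmem19 (0.85) and Ttc5 (0.84). For Nr0b2 they were Stard7 (0.87), 1810058I24Rik (0.86) and Nt5c2 (0.83). For Cyp7b1 they were Mup2 (0.84), Mup21 (0.80) and 0610031O16Rik (0.76). Mup2 and Mup21 are major urinary protein genes of a family with near-identical copies, so their counts are uncertain. These are the highest of 11977 correlations each over 16 shared libraries, and are given as a description.

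Of 68 other genes of bile acid synthesis, transport, sensing and detoxification, 63 could be tested, and edgeR and limma-voom called 0 in every comparison. Over all tested genes edgeR called at most 1 in each comparison, and limma-voom at most 1 in those other than any difference. DESeq2 called 1, Scp2, in the comparison of control stages, in the averaged stage effect and in any difference among the 4 groups, and 0 in the others. Among all tested genes DESeq2 called 0.553%, 0.217% and 0.516% in these comparisons. At an unadjusted p below 0.05 there were 5 of 63 (7.94%) in mature LERKO against control, 4 higher and 1 lower, beside 7.3% of all tested genes. There was 1 of 63 (1.59%) in immature mice, beside 2.76%. Between control stages there were 10 of 63 (15.9%), all lower in mature mice, beside 9.84%, and between LERKO stages 5 of 63 (7.94%), beside 4.93%. The difference of effects had 3 of 63 (4.76%, beside 6.35%), the averaged knockout effect 5 (7.94%, beside 3.69%), the averaged stage effect 10 (15.9%, beside 7.92%) and any difference 5 (7.94%, beside 6.6%). The median log2 fold change was 0.01 in mature LERKO and -0.08 in immature LERKO, against -0.01 and 0.01 over all tested genes. Between control stages it was -0.12, against 0.02 over all genes, with 48 of 63 values negative. Markers of other liver cells differed between the same libraries. The sum of 6 stellate genes was 139 to 200.4 CPM in mature and 90.7 to 114 in immature controls, that of 6 endothelial genes 161.5 to 216 and 101 to 151, and that of 6 Kupffer and myeloid genes 205 to 269 and 99.5 to 194, with no overlap for any of the 3 lists. Among single tested genes 8.86% separated the control stages. The other marker sums overlapped, the hepatocyte sum at 105700 to 135000 CPM in mature and 121300 to 141100 in immature controls. The part of stellate, endothelial, Kupffer and myeloid cells in the pathway values was not tested. None of the genes named next passed with edgeR.

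In mature mice the stellate sum also separated the genotypes, at 139 to 200.4 CPM in controls and 29.1 to 136 in LERKO, where the lowest was library 4 with acute phase transcripts. The nearest values, 136 CPM in LERKO library 1 and 139 in control library 3, lay close together. Of single tested genes, 3.9% separated these groups. Control libraries 1, 2 and 4, with muscle transcripts, held stellate sums of 200.4, 148 and 159 CPM. The part of muscle in the stellate sum was not tested. The other marker sums, among them the endothelial and the Kupffer and myeloid sums, overlapped. In immature mice the acute phase sum separated the genotypes, at 15230 to 17020 CPM in controls and 13340 to 14780 in LERKO. Here too the nearest values, 14780 and 15230 CPM, lay close together, and 1.63% of single tested genes separated these groups. The part of these differences in the values that follow, and in those of Nr0b2, was not tested. Among the regulators, Prox1, a corepressor of Cyp7a1, stood at 155 ± 20.9 CPM in controls and 214 ± 48.2 in LERKO (log2 fold change 0.47, edgeR adjusted p = 0.481). Fgfr4, the hepatic receptor for the ileal hormone FGF15, stood at 31.6 ± 1.12 and 39.5 ± 6.85 CPM (edgeR adjusted p = 0.565). The FXR target Pltp, a phospholipid transfer protein, stood at 68.2 ± 30.2 and 41.6 ± 6.57 CPM, and the canalicular exporter Abcc2 at 592 ± 23.2 and 504 ± 77.3. In immature mice the smallest p-values were those of Stard3, an endosomal cholesterol carrier (17.2 ± 1.33 CPM in controls and 14.8 ± 1.26 in LERKO), and Fetub (622 ± 101 and 487 ± 128). On the positive side stood Slc51b, a subunit of the basolateral exporter, at 0.559 ± 0.737 and 0.977 ± 0.469 CPM, and the coactivator gene Ppargc1a at 16.4 ± 3.36 and 19 ± 5.16.

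Between control stages, Scp2, a peroxisomal thiolase and sterol carrier of side-chain shortening, stood at 1552 ± 70.1 CPM in mature and 1986 ± 127 in immature mice. It had the smallest p of the 63 genes (log2 fold change -0.36, SE 0.11, edgeR adjusted p = 0.278), and its 4 mature controls lay below its 4 immature controls. DESeq2 gave -0.38 (SE 0.09, adjusted p = 0.013) and called it. Averaged over genotypes the stage effect was -0.27 with edgeR (adjusted p = 0.374), and DESeq2 called that too (adjusted p = 0.0132). With Scp2, Slc27a2, Abcb4 and Atp8b1 also had all 4 mature controls below all 4 immature controls, which makes 4 of 63 (6.35%) beside 8.86% of all tested genes. In mature LERKO against control 1 of 63 (1.59%) separated the groups, beside 3.9%. It was Insig2, an inhibitor of sterol synthesis, at 53.5 ± 7.75 CPM in controls and 72.6 ± 11.3 in LERKO. These 4 genes other than Scp2 are named after their values were seen. The bile acid sulfotransferase Sult2a1 had 1.8 ± 2.87 CPM in mature and 38.2 ± 57.8 in immature controls, SDs above the means, and its counts are uncertain because it has close copies. Slco2b1, an uptake carrier, stood at 238 ± 16 and 193 ± 34 CPM, and Pltp at 68.2 ± 30.2 and 50.6 ± 12.8. Between LERKO stages, Klb, the co-receptor of Fgfr4, stood at 33.9 ± 4.49 CPM in mature and 26.7 ± 2.05 in immature mice. Ppargc1a stood at 12.9 ± 1.12 and 19 ± 5.16 CPM, and Ugt2b1, a glucuronosyltransferase, at 130.3 ± 43 and 184 ± 43.7.

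For the difference between the knockout effects, the log2 values were 0.62 for Fetub and 0.52 for Hnf4a, a master regulator of hepatocyte genes, on the positive side and -0.82 for Pltp and -0.48 for Ppargc1a on the negative side, chosen by the smallest p. Their edgeR adjusted p-values ran from 0.768 to 0.776. For the averaged knockout effect, Fgfr4 (0.21) and Prox1 (0.25) stood on the positive side and Stard3 (-0.16) and the sterol exporter Abcg8 (-0.33) on the negative side, on the log2 scale. Prox1 stood at 18.4 ± 2.49 and 25.5 ± 5.75 CPM per kb in mature controls and LERKO, but at 19.9 ± 2.26 and 20.2 ± 2.2 in immature ones. Fgfr4 stood at 8.91 ± 0.316 and 11.1 ± 1.93 CPM per kb in mature, and at 8.76 ± 0.752 and 9.44 ± 0.779 in immature ones. Abcg8 stood at 140 ± 9.95 and 110 ± 33.9 CPM in mature controls and LERKO, and at 144 ± 19.1 and 117 ± 18.6 in immature ones. For the averaged stage effect, Cyp2c70, the enzyme of mouse muricholic acids, had a log2 value of 0.44 and the exporter Abcg2 -0.28, and neither passed.

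By level per kb, the pathway groups were led by Ces1d (580.5) and Scp2 (512) in synthesis, Ephx1 (102) and Slco2b1 (35.8) in uptake, and Abcc2 (66.2) and Abcc3 (43.8) in export. Hnf4a (181) and Rxra (96.7) led the regulators, Ces1d and Slc27a5 (382) the FXR targets, and Ugt1a1 (521) and Cyp3a11 (148) the detoxification genes. Rxra, the partner of FXR on DNA, stood at 508 ± 32.3 CPM in mature controls, 537 ± 51.3 in mature LERKO, 568 ± 65.6 in immature controls and 499 ± 72.8 in immature LERKO. Slc27a5, which activates bile acids before Baat acts, stood at 978 ± 66.7, 910 ± 48.7, 945 ± 79.5 and 892 ± 78.8 CPM in the same order. Neither gene was called in any comparison.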

How the data were processed

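RNA-seq of liver from 16 mice gave 1 library each; paired-end, strand-specific mRNA libraries were made per the labels' protocols. Per the submitters' processing notes, mm10, STAR, limma and R 4.05 were used; which program counted reads, and with what strand setting, is not stated there. The authors deposited 1 table of counts per gene, in which 10 deposited values of 2 genes, in 5 columns, are not whole. These 5 columns were handled like estimated counts and rounded to integers, and how the authors came to those values is not stated.

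Genes were kept by filterByExpr (minimum count 10, minimum total 15). TMM factors were 0.852 to 1.07, and counts were fitted in edgeR 4.0.16 (R 4.3.3) as 1 model with a coefficient per group. The threshold was an adjusted p of 0.05, and p-values weigh each difference against the spread between mice within groups. Intervals are 95% and SEs are the fold change over the square root of F. The common biological coefficient of variation was 21.2%. Log2 CPM used a prior count of 2, and correlations 100000 permutations. Alternatives used DESeq2 1.42.0, limma 3.58.1, RLE factors, library size alone, other filters, an adjusted p of 0.1, only the groups compared, and leaving out every library in turn. The edgeR step was tested on simulated data.

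Exon lengths are unions of GENCODE vM21 exons (GRCm38, which is mm10), where 35465 of 35502 identifiers matched. Among the 10 genes, Abcb11 alone shared exonic bases with another counted gene, Gm13613 on the opposite strand, which had at most 3 counts in a library.

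Members and lists were chosen with earlier results of these data known. Named beside the 10 members were Esr1, the 2 pathway genes with the smallest p in each direction per comparison, since none was called, the 2 with the highest level per kb of each pathway list, and the 3 genes most correlated with each of 4 members. Some genes this rule names are not reported here. Marker lists give summed CPM: 7 hepatocyte genes, led by Alb and Apoa1, summed to 86790 to 152400 CPM and 10 muscle genes, led by Acta1 and Atp2a1, to 0.502 to 810. The 8 cholangiocyte genes summed to 28.1 to 60.6, the 5 intestinal genes, led by Fabp2 and Vil1, to 41.9 to 178, the 6 endothelial genes, led by Eng and Stab2, to 75.3 to 216, the 6 stellate genes, led by Reln and Col3a1, to 29.1 to 200.4, and the 6 Kupffer and myeloid genes, led by Clec4f and Lyz2, to 99.5 to 269. Acute phase genes were led by Fgb and Fga and clock genes by Tef and Dbp. The 8 pericentral genes, led by Cyp2e1 and Glul, summed to 7002 to 18700 and the 8 periportal genes, led by Pck1 and Ass1, to 6810 to 12840.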

Additional observations from a re-analysis of the deposited data

Results flagged for a closer look

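Among 40 sets of 4 mice, 10 genes in 4 groups, 1 held a mouse far from the others of its group by Dixon's test. Slc10a1 stood at 786 CPM in immature control library 3, against 601 to 607 CPM in the other 3 immature controls. Chance gives such a mouse in about 1 in 20 sets.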

How the results depend on the processing

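Members called stayed at 0 in every comparison under the alternatives named above, including each library left out, and the smallest adjusted p of a member was 0.308. This was Nr0b2 in mature mice without mature LERKO library 1. Of 70 member folds, 50 were smaller than their standard error and were given mainly by interval or level; 186 of their 1279 alternative values had another sign. Of 511 alternative values of the other 20 folds, 1 had another sign: Cyp8b1 in mature against immature controls was 0.41 and became -0.27 without the 4 libraries with most muscle or acute phase transcripts, an alternative added with the values in view that leaves 2 mature controls. Without mature control library 1 alone it was already 0.0097. Of the 2 mature controls kept without the 4 libraries, library 4 held 53.7 CPM of muscle transcripts. The correlated pairs past the threshold, 0 as reported, were 1 with library size alone and 0 to 1 with single libraries left out, the pair being Slco1b2 and Nr1h4. Library size alone moved the median of all genes to -0.13 in the difference of the knockout effects. No paired analysis was possible because the labels give no replicate numbers shared between groups. With 4 mice a group, the intervals of Cyp7a1, Cyp8b1 and Nr0b2 reach past 2-fold in at least 1 comparison each.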
